A study of Mus musculus with 15 samples.

Results

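Exc_7 is 1 of the 26 clusters into which the authors divided the excitatory neurons of the mouse prefrontal cortex (PFC). Its members were chosen by the cluster name that the deposited table of cells gives to each cell, and no measured value was used beyond that name. They number 505 of 35360 retained cells and of 20377 cells with an Exc_ cluster: 381 of the 14443 Exc_ cells at P60 (2.64%), where the cluster is the 22nd in size, and 124 of the 5934 at P21 (2.09%). Single-cell RNA was measured in 15 libraries of male C57BL/6N mice, each made from the pooled tissue of 2 mice. The 12 adult libraries (P60, labelled as 8 to 10 weeks) came from mice that self-administered saline or cocaine intravenously, with 2 libraries for each agent at the end of maintenance, at 48 h of withdrawal and at 15 days of withdrawal. The other 3 libraries came from mice of 3 weeks (P21) with no self-administration. The study's text uses a broader set of excitatory clusters for its age and cocaine results, and a finer set of 26. The deposited table holds 26, so its Exc_7 is not the Exc-7 of those results. Whether its cluster numbers are those of the finer set is not stated in the sources used here, so Exc_7 means here the cluster of the table. The sample titles and source name the PFC, while the tissue field of the labels names the NAc.

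Excitatory neurons of the cortex release glutamate and are arranged in layers, each with its own targets. Cells of the upper layers mostly connect cortical areas, those of layer 5 send axons within the cortex or to distant regions, and those of layer 6 reach the thalamus or other cortical areas. Between weaning and adulthood such neurons lose much of the machinery of axon growth and complete their synapses, and cocaine is known to alter the prefrontal output to the striatum.

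Counts are unique molecular identifiers (UMIs), summed over the Exc_7 cells of a library and given as CPM, a gene's count scaled to a common library total, over the 25989 genes that are neither mitochondrial nor ribosomal protein genes. The number of Exc_7 cells in a library ran from 1 to 75, and 12 libraries with at least 10 cells were used for levels: 9 of P60, of which 4 were saline, and 3 of P21. Their Exc_7 cells held between 166203 and 1162743 UMIs a library. The median Exc_7 cell held 14484.5 to 20414 UMIs at P60 and 9645 to 13558 at P21, above the other Exc_ cells in 12 of 12 libraries, while its mitochondrial share was above theirs in 3 of 12. No barcode of an Exc_7 cell was shared between libraries, and at most 27 barcodes were shared between any pair of libraries.

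The cells carried the markers of cortical excitatory neurons, at levels that differed from those of the other Exc_ cells. *Slc17a7*, the vesicular glutamate transporter of cortical neurons, stood at 335 ± 52.1 CPM (mean ± SD, n = 9) against 399.6 ± 54.1 in the other Exc_ cells of the same libraries. *Snap25*, a membrane protein of vesicle fusion that marks all neurons, stood at 2319 ± 259 against 4339 ± 436 CPM, and Exc_7 had the lowest level of the 26 clusters. *Rtn1*, a neuronal protein of the endoplasmic reticulum, was the 4th highest of the 26 clusters at 4783 ± 1283 CPM, and *Camk2a*, the kinase of excitatory synapses, the 22nd at 266 ± 13.5 CPM. Of 9 inhibitory markers the sum was 0 to 36.9 CPM over the P60 libraries, and *Lhx6*, a transcription factor of inhibitory neurons, was at 0 in all of them.

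At P21, 14 of the 124 cells (11.3%) carry a class other than excitatory in the same table, against 4.51% of the other Exc_ cells at P21 and 1 of 381 Exc_7 cells at P60. They are 4 endothelial cells, 4 microglia, 3 astrocytes and 1 cell each of 3 classes of the oligodendrocyte lineage. The authors placed P21 cells in clusters by their correlation with the P60 clusters, so membership at P21 was decided in another way than at P60. The 10 oligodendrocyte markers summed to 193 to 1356 CPM in the P21 libraries and to 162 to 207 CPM when only cells of the excitatory class were kept, against 83.3 to 206 CPM in P60 saline libraries. The sum of 9 microglia markers was 35.3 to 601 CPM at P21, 22.0 to 65.4 CPM in cells of the excitatory class and 19.6 to 79.4 CPM in P60 saline libraries. None of either list was at 0 in every P21 library. For 10 astrocyte markers the P21 sums were 758 to 831 CPM over all cells and 648 to 729 CPM in the excitatory class, against 529 to 706 CPM in P60 saline libraries, and for 8 endothelial markers 736 to 1110.4, 609 to 922 and 530.0 to 860.5 CPM. The other Exc_ cells at P21 held 988 to 1088 and 697 to 1115 CPM. In the same order, *Bsg* of the endothelial list averaged 783, 692 and 665 CPM and *Flt1* 27.5, 4.79 and 1.90 CPM. *Slc1a2* of the astrocyte list averaged 407, 373 and 179 CPM and *Gja1* 4.21, 0 and 0.234 CPM. These 2 sums thus rest largely on genes that stayed high in the excitatory class.

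The genes highest in Exc_7 relative to the other Exc_ cells were led by *Figf*, *Hpcal1* and *Rab3b*. The cluster was made from the expression of these cells, so the levels of its leading genes are a description with no test. *Figf* (ENSMUSG00000031380, chrX:160811310-160840582 on mm9, plus strand), which encodes the secreted growth factor VEGF-D, lay between 126 and 212 CPM over 9 P60 libraries with a median of 177, and between 27.5 and 50.4 CPM in the other Exc_ cells. *Hpcal1* (ENSMUSG00000071379, chr12:17697620-17798732, plus strand), a calcium sensor of the visinin-like family, lay between 319 and 549.6 CPM with a median of 417, against 45.7 to 133. *Rab3b* (ENSMUSG00000003411, chr4:108551668-108615929, plus strand), a small GTPase of synaptic vesicles, lay between 102 and 211 CPM with a median of 127, against 17.3 to 40.9. The lowest Exc_7 library was above the highest value of the other Exc_ cells for each of these 3 genes. Their ratios of means were 4.76, 4.72 and 4.53.

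The next genes by ratio were *Tubb2b*, a beta-tubulin of young neurons, at 117 ± 26.0 against 30.6 ± 6.64 CPM, *Nnmt*, which methylates nicotinamide, at 47.1 ± 9.22 against 12.8 ± 2.96 CPM, and *Gpx3*, a secreted glutathione peroxidase, at 73.2 ± 32.7 against 20.1 ± 6.10 CPM. *Gpx3* was at 0 in 1 library, saline maintenance replicate 2, with 12 cells. *Gstm6*, a glutathione S-transferase, *Cpne7*, a calcium-dependent lipid-binding copine, *Kcng1*, a modifier subunit of voltage-gated potassium channels, *Mgp*, the matrix Gla protein, and *Fstl5*, a follistatin-like protein, had ratios of 3.59, 3.33, 2.73, 2.70 and 2.65. The nuclear receptor *Rxrg*, the HMG-box factor *Tox2*, the thyroid hormone-responsive *Thrsp* and *Parm1* completed the 15 with ratios of 2.61, 2.60, 2.57 and 2.45. Of these 15 genes, 14 were also above the other Exc_ cells at P21, the exception being *Tox2* at 4.84 against 10.4 CPM.

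**Figure D1:**
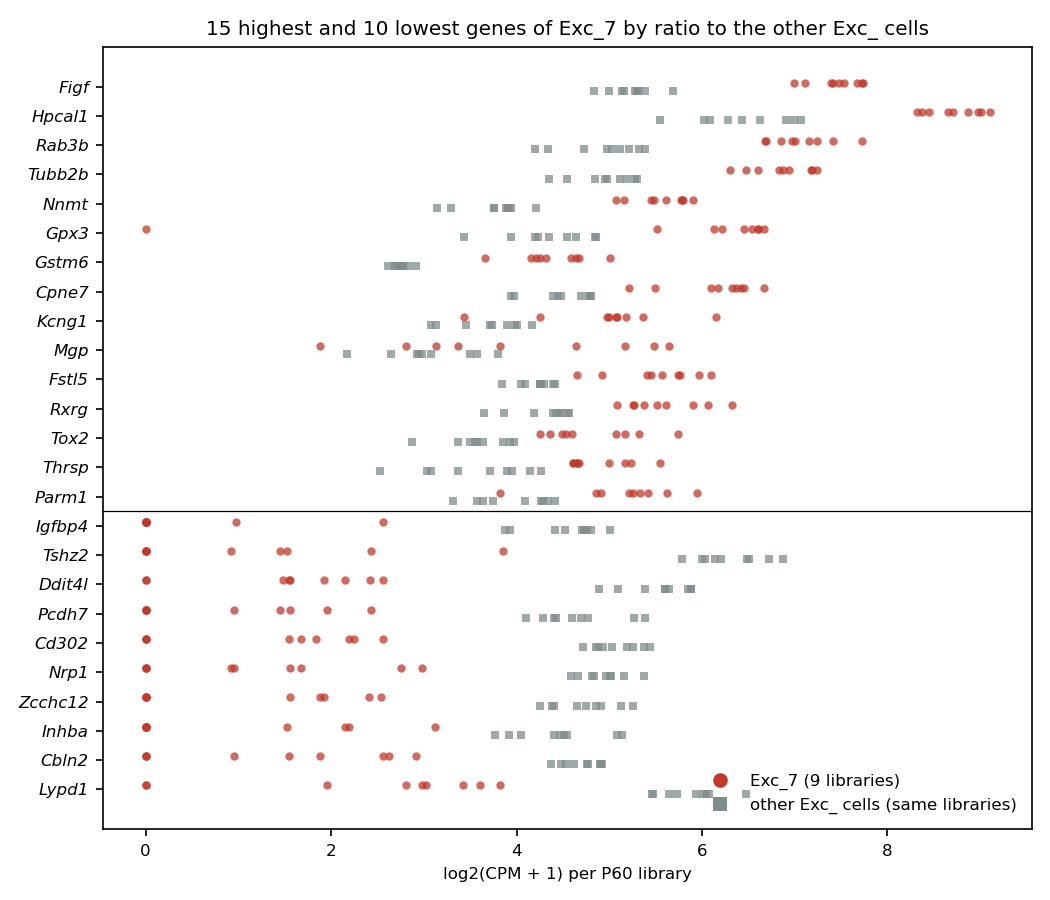
Levels of the 15 highest and 10 lowest genes of Exc_7 by ratio to the other Exc_ cells, on a log2(CPM + 1) axis, with 1 point for each of 9 P60 libraries. Red circles are Exc_7 and grey squares the other Exc_ cells of the same libraries. The symbols do not overlap for *Figf*, *Hpcal1* and *Rab3b*, while *Mgp* and *Gpx3* overlap in some libraries.

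Most of the leading genes were also high in another cluster. Among 5699 genes at 20 CPM or more in Exc_7, 41 were over 2 times the level in the other Exc_ cells, but 0 were over 2 times and 2 over 1.5 times the level of the next highest cluster. One of these was *Hpcal1*, at 428 ± 84.8 CPM against 274 in Exc_14. The 8 genes that followed by this measure were *Dpysl3*, *Plxdc2*, *Ak4*, *Ppat*, *3110002H16Rik*, *Rsu1*, *Cpne7* and *Fgfr1op*, with ratios to the next cluster from 1.36 to 1.24. *Rab3b* was slightly higher in Exc_20, at 144 CPM, and *Parm1* was at 160 CPM in Exc_26. The values of *Dpysl3*, a collapsin response mediator of growth cones, were 81.8 ± 13.6 in Exc_7 and 59.9 CPM in Exc_21.

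Of the genes at 20 CPM or more in the other Exc_ cells, 141 were under 0.5 times that level in Exc_7, and the lowest were nearly undetected in it. *Igfbp4*, which binds insulin-like growth factors, was at 0.651 ± 1.62 CPM against 22.8 ± 5.83, and *Tshz2*, a zinc finger factor of a layer 5 population, at 2.48 ± 4.36 against 80.4 ± 20.7 CPM. The highest cluster for *Tshz2* was Exc_21 at 2099 CPM. *Ddit4l*, an inhibitor of mTOR signalling, *Pcdh7*, a protocadherin, *Cd302*, a lectin receptor, and *Nrp1*, a receptor for semaphorins and VEGF, were at 2.35, 1.32, 2.1 and 2.07 CPM in Exc_7 against 46.5, 25.3, 33.2 and 30.0 CPM. The last 3 of these were lower in Exc_7 than in every other cluster. *Zcchc12*, *Inhba*, a subunit of activin, *Cbln2*, a synaptic organiser, and *Lypd1*, a modulator of nicotinic receptors, were at 1.84, 1.84, 2.46 and 6.33 CPM against 26.2, 21.7, 25.2 and 58.9 CPM. All 10 were also below the other Exc_ cells at P21. *Tshz2*, *Ddit4l* and *Lypd1* were lower still in Exc_14, at 0.772, 0.651 and 1.73 CPM, while the rest of the 10 were higher in Exc_14 than in Exc_7. Among the 26 clusters, Exc_7 ranked 18th, 16th and 17th for *Tshz2*, *Ddit4l* and *Lypd1*.

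Layer genes did not place Exc_7 at the top of any layer. *Etv1*, a transcription factor of layer 5, was 4th of 26 at 197 ± 30.4 CPM against 96.9 ± 13.7 in the other Exc_ cells and 705 in Exc_21. *Rspo2*, a Wnt agonist found in deep-layer neurons, was 2nd at 61.6 ± 13.3 against 32.5 ± 4.06 CPM and 64.7 in Exc_13. *Rorb*, a nuclear receptor of middle and deep layers, and *Fezf2*, which specifies corticofugal neurons, were both 10th, at 76.0 ± 15.0 and 43.5 ± 11.6 CPM. *Pou3f1*, a factor of subcortically projecting layer 5 cells, stood at 0.894 CPM. The layer 2/3 genes *Cux2* and *Calb1* were at 19.9 and 18.3 CPM against 53.4 and 88.9, and the layer 6 genes *Foxp2*, *Syt6* and *Tle4* at 7.59, 0.596 and 7.38 CPM against 14.5, 7.76 and 27. Of these 3, *Foxp2* was 5th of 26 clusters, with the highest level in Exc_20 at 172 CPM, *Syt6* 11th and *Tle4* 19th. *Nnat*, which encodes neuronatin, was 9th at 89.1 ± 26.0 CPM, and the highest levels were those of Exc_12 at 696 and Exc_13 at 654 CPM. The study names *Nnat* as a selective marker of the group of its clusters 7 and 14. Whether those numbers are the ones of the table used here is not known. *Drd1a*, the D1 dopamine receptor, was 6th at 15.4 ± 9.32 CPM, against 6.98 ± 1.87 in the other Exc_ cells and 27.8 in Exc_12.

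The same genes were read in single cells after thinning each cell to 5000 UMIs, which 371 of 381 P60 cells could give. *Hpcal1* had a UMI in 303 of them (81.7%, Wilson 95% interval 77.4% to 85.3%), in 23.9% of the other Exc_ cells and in 30.9% of endothelial cells. Whether background RNA is part of these shares was not tested. *Figf* had one in 53.4% (48.3% to 58.4%), against 9.57% and 2.70%, and *Rab3b* in 45.3% (40.3% to 50.4%), against 11% and 0.9%. *Etv1* was found in 47.7% (42.7% to 52.8%), against 21.5% and 13.0%. The thinned cells had median depths of 18064 UMIs in Exc_7, 13896.5 in other Exc_ cells and 6478.5 in endothelial cells, and before thinning the Exc_7 shares of *Hpcal1*, *Figf*, *Rab3b* and *Etv1* were 98.4%, 87.6%, 80.9% and 73.0%. Intervals cover counting error only. *Calb1* had a UMI in 6 of 177 cells with *Etv1* (3.39%) and in 12.9% of those without, whereas *Rorb* was found in 27.7% and 27.3%, and 10 of the 11 cells with *Foxp2* also had *Etv1*.

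Exc_14 was the cluster most like Exc_7. Across 7725 genes, the Pearson correlation of mean log2 levels was 0.985 with Exc_14, 0.970 with Exc_15, 0.969 with Exc_16 and 0.968 with Exc_25, given as a description since genes are not independent and all means come from the same libraries. Exc_14 was also the highest of the other clusters for 6 of the 15 leading genes, with *Figf* at 162 and *Tubb2b* at 115 CPM. Among these 6, *Nnmt* and *Gpx3* were higher in Exc_14 than in Exc_7, at 52.5 against 47.1 and 82.4 against 73.2 CPM. Exc_7 had the highest level of all clusters for 6 of the 15. The genes that separated both clusters were named after their values were seen. *Grp*, the gastrin-releasing peptide, stood at 144 CPM in Exc_7 and 11.7 in Exc_14 and was higher in Exc_7 in 9 of 9 libraries, as was *Etv1* at 197 against 45.8 CPM. *Crym*, a thyroid hormone-binding crystallin, stood at 333 against 113 CPM, *Pcdh19*, a protocadherin, at 47.6 against 12.7, and *Synpr*, a synaptic vesicle protein, at 179 against 50.2. The other Exc_ cells together held 134 CPM of *Grp*, 96.9 of *Etv1*, 366 of *Crym*, 46.6 of *Pcdh19* and 235 of *Synpr*. *Crym* and *Synpr* were thus lower in Exc_7 than in those cells. On the other side, *Bdnf*, the neurotrophin, was at 60.1 CPM in Exc_7 and 196 in Exc_14, *Scg2*, a granin, at 143 and 368, and *Cd24a*, a surface glycoprotein, at 7.04 and 39.5, each higher in Exc_14 in 9 of 9 libraries. The other Exc_ cells together held 154 CPM of *Bdnf*, 269 of *Scg2* and 7.64 of *Cd24a*.

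When each thinned P60 cell was compared by correlation with the mean profiles of the 26 clusters, built without its own library, 238 of 371 Exc_7 cells (64.2%) were closest to Exc_7, 18.6% to Exc_14 and 6.2% to Exc_25. The share closest to Exc_7 ran from 55.6% to 75.9% over the 9 P60 libraries. At P21 it was 39 of 113 cells (34.5%), with 18.6% closest to Exc_14 and 15.9% to Exc_25, and it ran from 30.8% to 38.5% over 3 libraries, below all P60 libraries. The profiles compared were those of P60 cells at both ages. The label of a P60 cell came from a clustering that used its own expression, and that of a P21 cell from correlation with P60 clusters. A match with the own cluster is thus not independent of the label, and the shares at both ages are not fully comparable. Of 742 Exc_14 cells at P60, 60.9% were closest to Exc_14 and 16.3% to Exc_7, and of 214 at P21, 131 (61.2%) were closest to Exc_14.

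Among Exc_7 cells the mean Fano factor (variance over mean of thinned UMIs, within a library) was highest for *Malat1*, a nuclear non-coding RNA, at 47.2. The imprinted RNA *Meg3* followed at 10.7 and the cytoskeletal actin *Actb* at 7.47, against a median of 1.03 over 3400 genes. The Fano factor can grow with a gene's level, and these genes held means of 138, 53.2 and 17.6 thinned UMIs a cell. Their order is therefore not one of relative variation. *Pcp4*, a calmodulin-binding peptide of deep-layer neurons, was 4th at 3.67, on a mean of 1.96 thinned UMIs a cell. It had a UMI in 66.0% of thinned Exc_7 cells and 73.0% of other Exc_ cells.

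Exc_7 made up between 0.312% and 4.74% of the Exc_ cells of a P60 library, and no difference with cocaine or with age was detected. The share was 2.75% ± 1.10 (SD, n = 6) in cocaine and 1.92% ± 1.56 (n = 6) in saline libraries, a difference of 0.827 percentage points within time points (two-sided exact permutation test, 216 regroupings, p = 0.241). At 48 h of withdrawal the cocaine libraries held 3.88% and 3.39% and the saline libraries 1.46% and 0.802%, so the groups did not overlap, but an exact permutation test with 2 libraries a side cannot reach a p of 0.05 (the smallest it allows is 0.333). At maintenance (2.59% and 0.702% in cocaine, 1.89% and 0.312% in saline) and at 15 days (2.86% and 3.05% in cocaine, 2.31% and 4.74% in saline) they overlapped. The P60 saline libraries were 0.253 percentage points below the P21 libraries, at 2.17% ± 0.532 (n = 3), with an exact permutation p of 0.81 over 84 splits. Without saline maintenance replicate 1, which held 1 Exc_7 cell, this difference turned to 0.0684 points above.

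**Figure D2:**
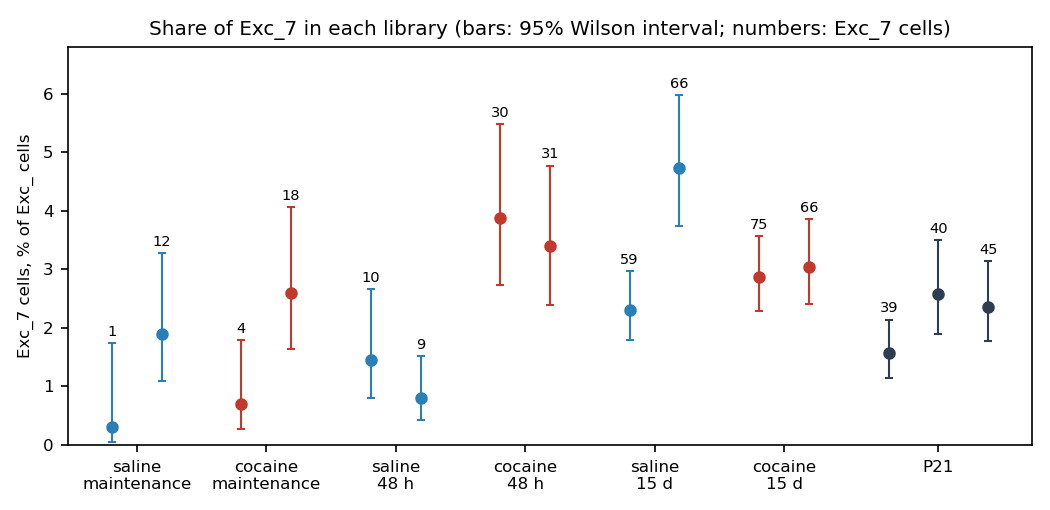
Share of Exc_7 among the Exc_ cells of each library in percent, with the 95% Wilson interval and the number of Exc_7 cells above each point. Saline libraries are blue, cocaine libraries red and P21 libraries dark. The 48 h groups do not overlap, at 3.39% and 3.88% against 0.802% and 1.46%, while those at maintenance and 15 days do.

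Between P21 and P60 saline mice, 10 of 26 axon growth genes and 9 of 14 immediate early genes were lower in Exc_7 at P60, and single metabolic enzymes such as *Ass1* and *Fdps* were higher. Of the 9 immediate early genes, 4 were also called when only cells of the excitatory class were kept. Both lists were chosen with earlier results of these data known. Of 5718 genes tested, 698 (12.2%) passed an adjusted p of 0.05 and a fold of 1.5 in edgeR's quasi-likelihood test, 299 higher at P60 (5.23%) and 399 lower (6.98%). In the other Exc_ cells of the same libraries, 298 of the 299 and 399 of the 399 changed in the same direction, so these directions are not particular to Exc_7. The same test over those other cells called 993 of 13101 genes higher and 1325 lower. The test used 4 saline libraries and 3 P21 libraries. The saline mice had gone through food training, catheter surgery and saline self-administration, while P21 mice had no self-administration. Here, and in the share and interaction tests, age cannot be told apart from this history. The mice counted for P21 in the methods are fewer than 3 separate pairs, so P21 libraries may share mice and these p-values may then be too small. With P21 libraries 2 and 3 summed into 1, 507 genes were called. The count was 362 without saline 15 d replicate 1, 456 without P21 replicate 2 and 328 by DESeq2, which gave no adjusted p for 2997 of the genes. Of 80 genes named in the text and called, 37 were called without each library in turn and 41 by DESeq2. Names were repeated for 1 of the risen and 4 of the fallen genes, and of the rest 591 were called also when only cells of the excitatory class were kept, 66 were not, and 36 were too low there to be tested.

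The largest rise was that of *Ass1*, argininosuccinate synthase of the urea and nitric oxide cycles, with 18.9, 12.6 and 17.0 CPM at P21 and 83.3, 102, 147 and 129.9 CPM at P60. All P60 libraries lay above all P21 libraries, with a log2 fold change of 2.95 ± 0.28 (SE, adjusted p = 2.09e-06). *Gstt1*, a glutathione S-transferase, went from 16.8, 15.1 and 4.84 to 68.6, 42.1, 54.8 and 51.4 CPM, with a log2 fold change of 2.13 ± 0.35 (SE, adjusted p = 0.000746). *Anxa11*, an annexin, went from 16.8, 17.7 and 19.4 to 34.3, 72.2, 53.9 and 71.9 CPM, with a log2 fold change of 1.77 ± 0.31 (SE, adjusted p = 0.00144). *Sf3a2*, a splicing factor, *Phf1*, a partner of the Polycomb complex, *Mterfd1*, a mitochondrial factor, and *Tnnt2*, cardiac troponin T, rose with log2 fold changes of 1.82, 1.99, 1.78 and 1.73. *Pcsk4*, *Spin2*, *Aifm3*, *Map3k6* and *BC030499* completed the 12 largest rises with 1.80, 1.73, 1.71, 1.68 and 1.57, on levels of 12.0 to 42.1 CPM in P60 saline libraries for the first 4.

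The clearest fall was that of *Marcksl1*, which binds actin and calmodulin in growing neurites, from 223, 239.7 and 213 CPM at P21 to 14.7, 36.1, 15.4 and 27.1 CPM at P60. Every P60 library was more than 5 times below every P21 library, with a log2 fold change of -3.31 ± 0.23 (SE, adjusted p = 2.86e-08). *Nnat* fell from 376, 818 and 450.4 to 39.2, 78.2, 79.8 and 86.9 CPM, with a log2 fold change of -2.79 ± 0.28 (SE, adjusted p = 0.000342), and *Cd24a* from 50.4, 40.4 and 53.3 to 0, 0, 8.66 and 9.34 CPM, with a log2 fold change of -2.61 ± 0.39 (SE, adjusted p = 0.000429). The histone gene *Hist1h2bc*, the lipid transfer protein *Pitpnc1* and *Lypd1* fell by 3.20, 2.46 and 2.42 on the log2 scale. *Marcksl1* and *Cd24a* each have 1 near-identical copy of their 3′ end in the genome, and *Ass1* also has 1, so their counts are uncertain to that extent.

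Several of the largest falls changed in size when the 14 P21 cells of other classes were left out. *Sparc*, a matrix protein abundant in endothelial cells, astrocytes and microglia, went from 81.9, 121 and 55.7 CPM at P21 to 0, 0, 3.85 and 6.54 CPM at P60, with a log2 fold change of -4.19 ± 0.41 (SE, adjusted p = 2.69e-06). In P21 cells of the excitatory class alone it stood at 14, 2.96 and 19.3 CPM. *Sepp1*, selenoprotein P, had a log2 fold change of -2.22 ± 0.44 (SE, adjusted p = 0.00378), but its P21 mean was 41.0 CPM over all cells and 5.36 CPM in the excitatory class, below the P60 saline mean of 14 CPM, so that the direction turned. *Npy*, neuropeptide Y of interneurons, fell by 3.14 on the log2 scale over all cells and by 2.17 in the excitatory class, where its P21 values were 53.7, 59.2 and 113 CPM. *Ier2*, an immediate early gene, was at 44.4, 17.7 and 30.3 CPM in P21 cells of the excitatory class and at 0, 0, 2.89 and 8.41 CPM at P60. Neither *Sparc*, *Sepp1* nor *Ier2* was high enough in the excitatory class alone to be tested. The haemoglobin genes *Hba-a2* and *Hbb-b1*, carried by red blood cells, were also among the 12 largest falls, at 552, 124 and 89.6 and 1889.7, 591 and 431 CPM at P21 against 9.80, 12.0, 11.5 and 19.6 and 63.7, 144, 47.1 and 101 CPM, and the 3′ end of *Hba-a2* has 1 near-identical copy. In P21 cells of the excitatory class alone they stood at 612, 145 and 16.5 and 2089.9, 666 and 143 CPM, so that P21 replicate 3 lay within the range of the P60 saline libraries for both. There *Hbb-b1* was not called (adjusted p = 0.0817) and *Hba-a2* was too low to be tested.

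The list of axon growth and growth cone genes was chosen with earlier results of these data known. It holds *Marcksl1*, whose fall with age the study reported, so it is no independent evidence of direction. Genes of this list fell in 10 of 26 tested, beside 6.98% of all genes, and rose in 0, with a median log2 fold change of -0.47 against -0.01 over all genes tested. Besides *Marcksl1*, *Nnat* and *Cd24a*, these were *Klc1*, a kinesin light chain, from 724, 699 and 727 to 211, 205, 259 and 352 CPM, *Dpysl2*, a collapsin response mediator, from 1230.4, 1176 and 1368 to 529, 842, 781 and 835 CPM, and *Dpysl5*, *Marcks*, *Tubb2b*, *Crmp1* and *Dclk1*, which fell by 1.56, 0.80, 0.80, 0.67 and 0.63 on the log2 scale. *Tubb2b*, a leading gene of the cluster, has 2 near-identical copies of its 3′ end, so its count is uncertain. Of 10 neurofilament and microtubule-associated genes, *Mapt*, which encodes tau, and *Mtap4* rose with log2 fold changes of 0.62 and 0.90, beside 5.23% of all genes called higher, 0 fell, and the median was -0.08.

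Immediate early genes, which neurons switch on with activity or stress, were lower at P60 in 9 of 14 tested, beside 6.98% of all genes, and higher in 0, with a median of -0.96. *Junb*, an AP-1 subunit, fell from 342, 187 and 249 to 29.4, 78.2, 32.7 and 104 CPM, with a log2 fold change of -1.99 ± 0.45 (SE, adjusted p = 0.0298). *Fos* fell from 239, 290.2 and 269 to 113, 72.2, 121 and 201 CPM, with a log2 fold change of -0.88 ± 0.21 (SE, adjusted p = 0.0127), and *Egr1*, a zinc finger factor, from 149, 237 and 242 to 88.2, 90.3, 119 and 105 CPM, with a log2 fold change of -0.94 ± 0.19 (SE, adjusted p = 0.00386). *Nr4a1*, *Dusp1*, *Jun*, *Btg2* and *Homer1* fell by 1.55, 1.38, 1.13, 1.09 and 0.97, beside *Ier2*. When only cells of the excitatory class were kept, 4 of the 9 were still called, *Junb*, *Nr4a1*, *Egr1* and *Homer1*. *Fos* then stood at 170.5, 130.1 and 201 CPM at P21, overlapping the P60 values, with a log2 fold change of -0.23 (adjusted p = 0.574). *Jun* and *Btg2* had -0.60 (adjusted p = 0.196) and -0.62 (adjusted p = 0.151), and *Dusp1* and *Ier2* were too low there to be tested. The median Exc_7 cell had a mitochondrial share of 3.29% to 3.51% in the P21 libraries and of 2.11% to 2.54% in the P60 libraries, with no overlap, and its part in these values was not tested.

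Of 76 oxidative phosphorylation genes, 6 rose and 0 fell, with a median of 0.25, and the number that rose stood near the background of 5.23%. *Uqcrc1*, a core subunit of complex III, went from 329.6, 333 and 329 to 558, 589.6, 591 and 519 CPM, with a log2 fold change of 0.81 ± 0.13 (SE, adjusted p = 0.000746). *Ndufs1*, *Ndufv1* and *Ndufa9* of complex I, *Uqcrc2* of complex III and *Sdha* of complex II rose by 0.89, 0.71, 0.62, 0.70 and 0.62. In cholesterol synthesis 2 of 18 genes rose and 1 fell, beside 5.23% and 6.98% of all genes, with a median of 0.27. *Fdps*, farnesyl diphosphate synthase, went from 130.2, 197 and 317 to 598, 451, 524 and 523 CPM, with a log2 fold change of 1.35 ± 0.23 (SE, adjusted p = 0.00319), and *Sc4mol*, a sterol oxidase, rose by 1.22. The 3′ end of *Fdps* has 4 near-identical copies.

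Of 28 genes of vesicle release, 5 were called, beside 12.2% of all genes tested. *Syt5* rose by 0.67 and *Unc13a*, *Syt7*, *Cplx2* and *Syn1* fell by 1.19, 0.86, 0.84 and 0.61, with a median of -0.26. Of 15 NMDA and AMPA receptor genes, 1 fell, the scaffold *Dlg3*, by 1.03. Of 9 GABA-A receptor subunits, 1 rose, *Gabra3*, by 0.82. Among 23 potassium channel genes, *Kcnf1* and *Kcnk1* fell by 0.88 and 0.69, and among 13 sodium and calcium channel genes *Cacna2d1* fell by 0.60. The G protein subunit *Gnal* fell by 0.78 among 6 genes of dopamine signalling, and the guidance ligand *Efnb3* by 0.78 among 15 axon guidance genes. Of 5 metabotropic glutamate receptor and Homer genes, 1 was called, *Homer1*, and of 11 neuropeptide and neurotrophin genes 1, *Npy*. The lists after vesicle release held few calls each, beside 5.23% of all genes called higher and 6.98% lower. Nothing is read from these counts. When only cells of the excitatory class were kept, *Gabra3* (log2 fold change 0.72, adjusted p = 0.061), *Efnb3* (-0.76, adjusted p = 0.0521) and *Cplx2* (-0.75, adjusted p = 0.0547) were no longer called. *Slc17a7* fell from 720.2, 462 and 453 to 265, 283, 372 and 335 CPM, with a log2 fold change of -0.72 ± 0.17 (SE, adjusted p = 0.0106), the only 1 of 6 excitatory markers called.

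Of 13 DNA methylation and histone regulators, 2 rose and 3 fell, with a median of -0.21, beside 5.23% of all genes tested called higher and 6.98% lower. The study chose this list on these samples, so it is no independent evidence of direction. *Dnmt3a*, a de novo DNA methyltransferase, fell from 69.3, 151 and 104 to 34.3, 18.1, 35.6 and 38.3 CPM, with a log2 fold change of -1.58 ± 0.26 (SE, adjusted p = 0.00099), and *Prmt1*, an arginine methyltransferase, rose from 155, 103 and 133 to 314, 301, 256 and 263 CPM, with a log2 fold change of 1.12 ± 0.18 (SE, adjusted p = 0.000559). *Yeats4* and *Ube2d3* fell by 1.10 and 0.68. *Hspa1a*, an inducible heat shock protein, was counted as risen by 1.49, but its P60 values of 14.7, 48.1, 49.1 and 84.1 CPM overlapped those at P21 of 14.7, 32.8 and 17.0. Among 24 heat shock genes *Hspa1a* and *Stip1* rose and *Hspa4* fell, a share near the 12.2% of all genes called. Of the 15 leading genes of Exc_7, *Figf* rose by 0.74 and *Parm1* by 1.22, and *Tubb2b* fell, as given above, while *Hpcal1* had a log2 fold change of 0.31 (adjusted p = 0.207). The layer 5 gene *Etv1* had a log2 fold change of 0.04 (adjusted p = 0.897).

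**Figure D3:**
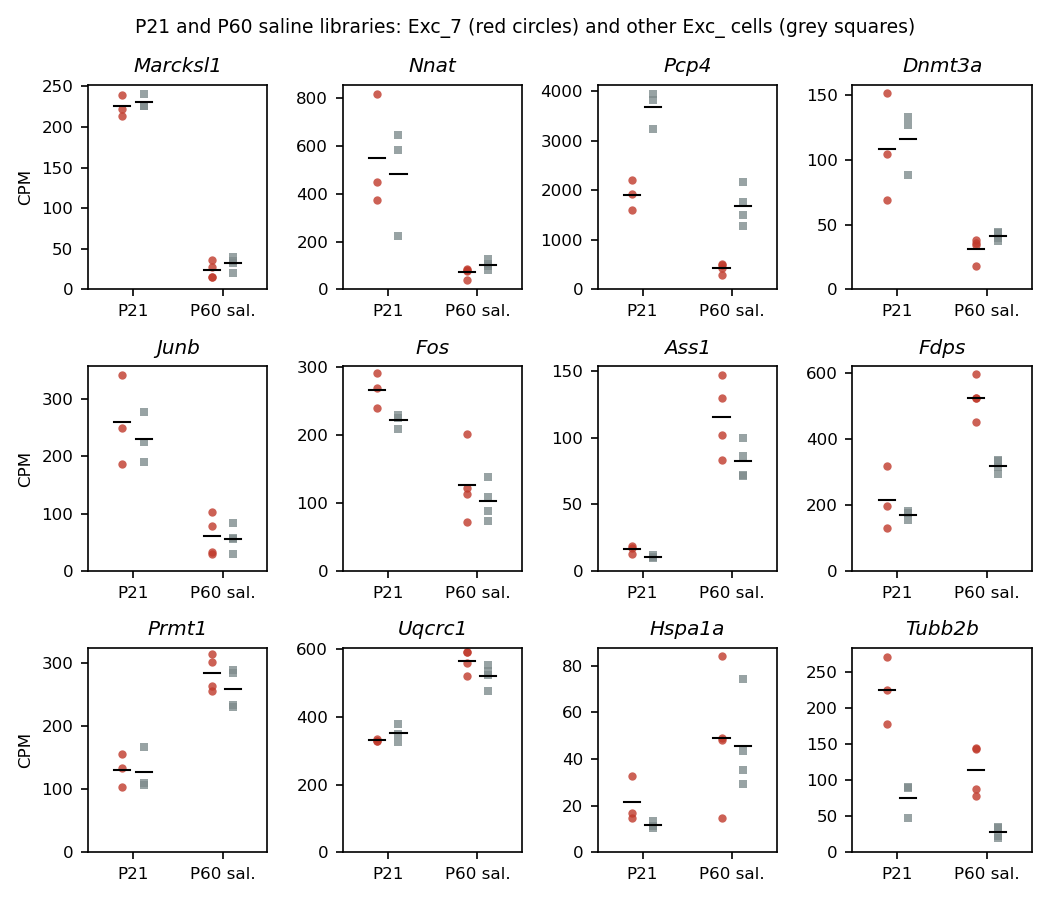
CPM of 12 genes in the 3 P21 and 4 P60 saline libraries, with red circles for Exc_7, grey squares for the other Exc_ cells and black bars for group means. *Marcksl1* fell from above 200 CPM to below 40 CPM in both, and *Ass1*, *Fdps*, *Prmt1* and *Uqcrc1* rose in both.

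A few genes changed with age in Exc_7 by another amount than in the other Exc_ cells of the same libraries. The interaction of cluster with age, with the library as a block, was called for 20 of 11990 genes (0.167%), 9 upward (0.0751%) and 11 downward (0.0917%). The count was 2 with as many other Exc_ cells as Exc_7 cells, 6 without either saline 15 d library and 11 without P21 replicate 2. Placement of P21 cells used expression, so this test is not independent of how the P21 members were chosen. *Pcp4* fell further in Exc_7, from 2203, 1595 and 1928 CPM at P21 to 299, 499, 514 and 422 CPM at P60, against 3946, 3231 and 3821 to 1287, 1504, 2172 and 1768 CPM in the other Exc_ cells. The difference of the log2 changes was -1.03 ± 0.08 on the log2 scale (SE, adjusted p = 4.46e-33). In this test the estimate of spread is shared over genes. The SE and p-value thus do not rest on the spread of *Pcp4* between libraries alone and may be too small. The same holds for the other genes of this test. The 3′ end of *Pcp4* lies near that of *Igsf5* on the same strand, so reads of the latter cannot be told apart there. *Rab3b* held its level in Exc_7, with 139, 169 and 116 CPM at P21 and 127, 114, 141 and 102 CPM at P60, while the other Exc_ cells went from 56.0, 76.5 and 79.4 to 19.2, 17.3, 31.7 and 33.6 CPM. The difference was 1.08 ± 0.17 on the log2 scale (SE, adjusted p = 7.34e-07). *Pcp4* and *Rab3b* were the 2 of the 13 genes given here that were called without each library in turn.

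The other 11 were not called in at least 1 of those fits. *Ndn*, the imprinted gene of necdin, went from 323, 527 and 494 to 745, 842, 677 and 557 CPM in Exc_7 and from 361, 472 and 441 to 388, 471, 363 and 452 CPM in the others, with a difference of 0.66 ± 0.09 on the log2 scale (SE, adjusted p = 1.26e-08). *S100a10*, an annexin partner known from layer 5 corticostriatal neurons, went from 393, 444 and 419 to 220.5, 331, 334 and 281 CPM against 177, 193 and 205 to 180.0, 165, 246 and 241 CPM, with a difference of -0.68 ± 0.11 on the log2 scale (SE, adjusted p = 7.34e-07). *Tox2* rose from 2.1, 7.57 and 4.84 to 19.6, 18.1, 22.1 and 32.7 CPM in Exc_7, with a difference of 2.37 ± 0.56 on the log2 scale (SE, adjusted p = 0.0185), and of 2.18 (adjusted p = 0.0525) among cells of the excitatory class alone, where it was not called. *Caln1*, a calcium-binding protein, *Oat*, ornithine aminotransferase, *Dok5* and *Fam49a* had differences of 0.84, 0.74, 0.62 and 0.62, and *Dkkl1* and *Cdkn1a*, the p21 cell cycle inhibitor, of -0.65 and -0.63. Among the fixed lists, *Rab3b* was the only call of 29 vesicle release genes, beside 0.167% of all genes. *Atp1b2*, of the astrocyte list, and *Tspan17* were also called downward, with differences of -0.84 and -0.89 (both adjusted p = 0.046), but their ratios to the other Exc_ cells overlapped between the ages.

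**Figure D4:**
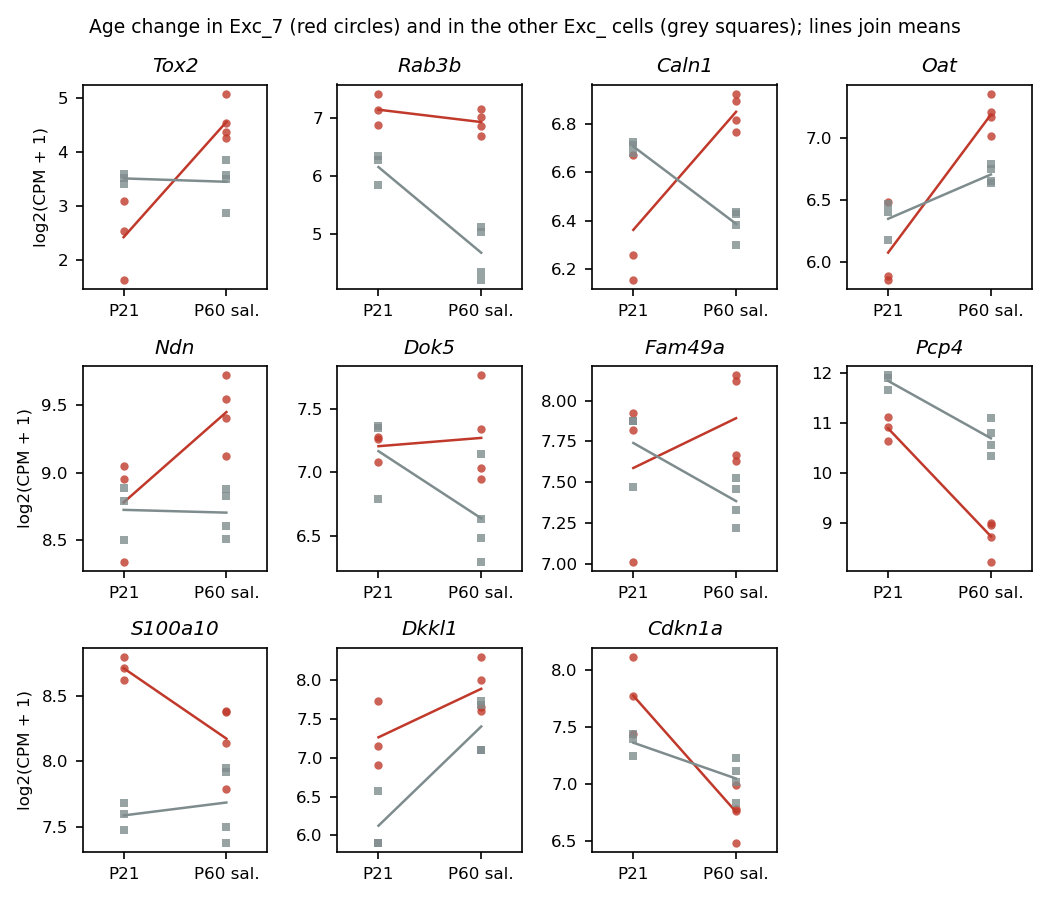
Levels at P21 and in P60 saline libraries on a log2(CPM + 1) axis for 11 of the 20 called genes, those with at least 20 CPM whose ratio to the other Exc_ cells did not overlap between ages. Exc_7 is shown as red circles and the other Exc_ cells as grey squares, with lines joining the group means. The *Rab3b* line is nearly flat in Exc_7 and falls in the other cells, and the *Pcp4* line falls more steeply in Exc_7.

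At 15 days after the last session, cocaine libraries had higher levels than saline libraries for 59 genes and lower levels for 2, of 7647 tested (0.798% in all, 0.772% higher and 0.0262% lower). The fit covered all P60 groups, but its spread came only from those with 2 libraries, which were cocaine 48 h, cocaine 15 d and saline 15 d. With the 4 libraries of 15 days alone 14 genes were called. The 2 cocaine libraries held 75 and 66 Exc_7 cells and the saline libraries 59 and 66. *Tomm20*, a receptor of the mitochondrial outer membrane, stood at 194 and 170.3 CPM in cocaine and 45.2 and 88.8 in saline, with a log2 fold change of 1.46 ± 0.21 (SE, adjusted p = 0.000983). *H2afx*, the histone variant of DNA damage foci, stood at 38.4 and 30.1 against 5.77 and 11.2 CPM, with a log2 fold change of 2.00 ± 0.35 (SE, adjusted p = 0.00142), and *Dut*, which clears dUTP, at 73.1 and 64.5 against 13.5 and 32.7 CPM, with a log2 fold change of 1.58 ± 0.26 (SE, adjusted p = 0.000983). *Tspan17*, a tetraspanin, stood at 82.9 and 92.9 against 31.7 and 36.4 CPM, with a log2 fold change of 1.39 ± 0.21 (SE, adjusted p = 0.000373). *Rnf126*, *Ccdc85b*, *Mrps24*, *Isyna1*, *Zbtb22*, *2310047M10Rik*, *Dnlz* and *Tm2d1* rose by 2.03, 1.82, 1.65, 1.63, 1.63, 1.58, 1.38 and 1.34 on the log2 scale. The 2 that fell were the cytokine *Il18*, with 13.4 and 11.2 against 33.7 and 27.1 CPM, and *Nppc*, the C-type natriuretic peptide, with 20.5 and 23.2 against 61.6 and 43.0 CPM.

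The 59 genes were chosen in these 4 libraries, so their values in other cells of the same libraries are a description. All 59 were also higher in the other Exc_ cells of the cocaine libraries, with a median log2 difference of 0.93 against 1.12 in Exc_7, as were 58 in inhibitory neurons, 57 in astrocytes, 57 in endothelial cells, 56 in oligodendrocytes and 51 in microglia. Of 7592 genes tested, 30.0% were higher in the cocaine libraries in the other Exc_ cells, and 45.3% to 51.0% in these 5 types. Their summed level in Exc_7 was 8058 and 7249 CPM in cocaine and 3280 and 4653 CPM in saline libraries, 3123 to 3997 CPM in the P60 libraries of the earlier time points, and 11231, 6877 and 6226 CPM at P21. A test over the other Exc_ cells called 0 of 13689 genes (1027 at an unadjusted p under 0.05). By DESeq2 the count in Exc_7 was 0, with 63 at an unadjusted p under 0.05, and 0 remained without cocaine 15 d replicate 1. The count was 15 without cocaine 15 d replicate 2 and 261 without saline 15 d replicate 2. The interaction of cluster with cocaine was called for 0 of 12923 genes (0.0%) by edgeR, with 492 at an unadjusted p under 0.05, and for 0 by DESeq2, with 10.

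**Figure D5:**
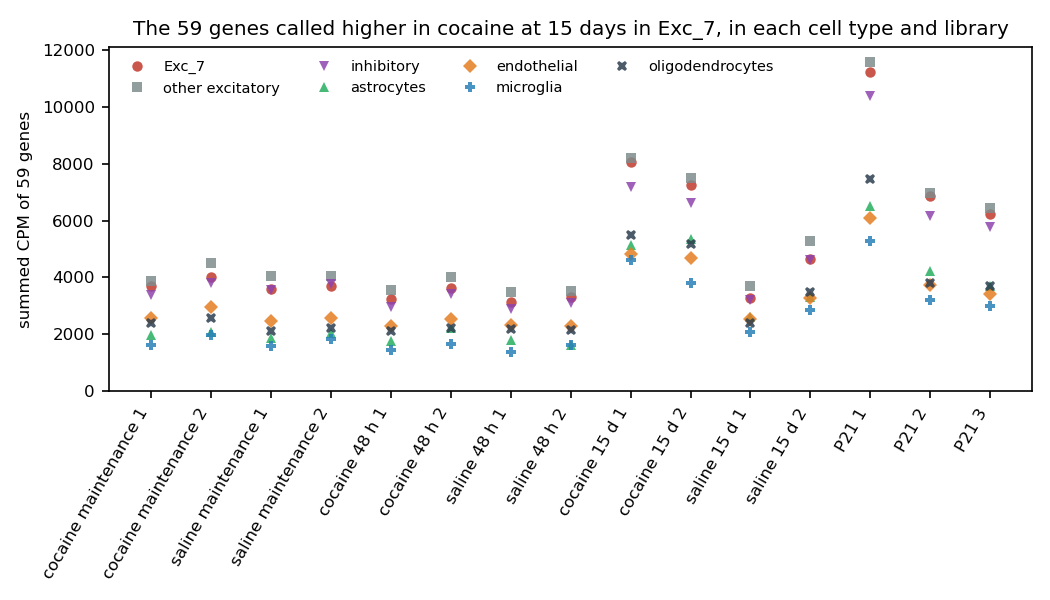
Summed CPM of the 59 genes that were higher in Exc_7 of the cocaine libraries at 15 days, for each library along the x axis and each cell type as a symbol. In every type the cocaine 15 d libraries lie above the saline 15 d libraries, and P21 replicate 1 is the highest library, at 11231 CPM in Exc_7.

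*Cck*, the cholecystokinin peptide, stood at 15 days at 3639 and 3102 CPM in cocaine and 439.6 and 1574 CPM in saline, with the other Exc_ cells at 3737 and 3128 and 459 and 1687 CPM. Its log2 fold change of 1.76 ± 0.75 (SE, adjusted p = 0.782) did not pass the test. Among the fixed lists, *Klc1* of the axon growth genes was the only call at 15 days, at 492 and 449.8 against 259 and 352 CPM. The age comparison uses the same saline 15 d libraries, so the values of *Klc1* in both comparisons are not independent. Of 8 tested genes of dopamine signalling and 16 immediate early genes, 0 were called at 15 days, beside 0.798% of all genes, so nothing is read from that count. The list medians were 0.03 and 0.15 against -0.0046 over all genes tested, and *Fos* was at 91.0 and 135 CPM in cocaine and 121 and 201 CPM in saline.

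Maintenance and 48 h could not be tested with 2 libraries a side, since cocaine maintenance replicate 1, saline maintenance replicate 1 and saline 48 h replicate 2 held 4, 1 and 9 Exc_7 cells. A fit over all P60 groups, with the lone library taken to vary like the other groups, called 0 genes at maintenance (618 at an unadjusted p under 0.05) and 1 of 7647 at 48 h, *Meg3*, with a log2 fold change of 0.72 and an adjusted p of 0.0260. *Meg3* stood at 10514 and 12769 CPM in the 2 cocaine libraries and at 7124 CPM in the saline library of 10 cells. With a minimum of 5 cells, which admits saline 48 h replicate 2, 0 genes were called at 48 h (415 at an unadjusted p under 0.05).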

How the data were processed

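Single-cell RNA was measured in 15 10x libraries of mouse PFC. The deposited UMI counts per gene and barcode were made by the authors; the submitters' processing notes name Cell Ranger, Seurat 2.1.0 and the mm9 build. The deposited table of cells gives each cell's class, cluster and counts of genes and UMIs, and its mitochondrial fraction, all assigned by the authors. The 35360 cells of that table were used, with no further doublet removal, and the deposited expression matrix was not used.

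UMIs were summed over the Exc_7 cells of each library with at least 10 of them. Genes of the mitochondrial genome (13) and of ribosomal proteins (143) were dropped, which kept 25989 of 26145, and 149 repeated symbols were not named. Sums were tested with edgeR 4.0.16 (TMM, filterByExpr, robust quasi-likelihood, R 4.3.3), and a gene was called at a Benjamini-Hochberg adjusted p under 0.05 and a fold over 1.5. Interactions used the library as a block. DESeq2 1.42.0 was an alternative. Shares were compared by exact permutation tests (scipy 1.17.1). The edgeR tests of age and of cocaine at 15 days in Exc_7 were checked on simulated data, and the interaction tests were not. For levels, the last 400 bases of named genes were searched with minimap2 2.31-r1302 for copies of at least 95% identity over 90% of their length, and 9 genes had one: *Actb*, *Anxa11*, *Ass1*, *Cd24a*, *Fdps*, *Hba-a2*, *Marcksl1*, *Tm2d1* and *Tubb2b*. The 3′ ends of 9 named genes lie near another annotation of the same strand.

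Named genes were the members of the lists, the 15 highest, 10 lowest and 10 most above the next cluster at 20 CPM or more, up to 12 non-overlapping called genes per direction, genes that the study names, and the 10 of highest Fano factor. Some genes that meet these rules are not reported here. Genes set against Exc_14, and *Atp1b2*, *Igsf5* and *Meg3*, were named after their values were seen. Members and lists were chosen with earlier results of these data known. The number of adult mice in the methods equals that of separate pairs for all P60 libraries, while that of P21 is lower. The p-values measure the spread between libraries, and edgeR shares its estimate of that spread over genes.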

Additional observations from a re-analysis of the deposited data

Results flagged for a closer look

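In P60 saline libraries, *Pcsk4*, a proprotein convertase, stood at 12.0 CPM in saline 48 h replicate 1, which held 10 Exc_7 cells, while the other 3 libraries lay between 27.1 and 29.8 CPM. This was 1 of 36 groups examined for a library far from the rest, and chance gives about 1 in 20.

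The age change differed between Exc_7 and the other Exc_ cells for 20 genes, by the interaction test of edgeR with the library as a block, and 11 of them had at least 20 CPM and a ratio to the other Exc_ cells that did not overlap between ages. For these 11 genes the difference on the log2 scale was 2.37 for *Tox2*, 1.08 for *Rab3b*, 0.84 for *Caln1*, 0.74 for *Oat*, 0.66 for *Ndn*, 0.62 for *Dok5* and 0.62 for *Fam49a*. It was -1.03 for *Pcp4*, -0.68 for *S100a10*, -0.65 for *Dkkl1* and -0.63 for *Cdkn1a*.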

How the results depend on the processing

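The age count of 698 genes was 328 by DESeq2, which gave no adjusted p for 2997 of 5718 genes, 341 with at least 20 cells a library and also with the 15 d saline libraries alone, 41 by Bonferroni adjustment and 226 with 10 cells drawn a library. Leaving out 1 library gave 362 to 704, with 362 without saline 15 d replicate 1 and 456 without P21 replicate 2. The count of 61 at 15 days was 0 by DESeq2, 148 with no filter, 15 by Bonferroni, 100 with at least 5 cells (chosen after seeing the data) and 14 with the 15 d libraries alone (also chosen after), and 0 to 261 without 1 library. The age interaction count of 20 was 6 by DESeq2, which gave no adjusted p for 10693 of 11990 genes, 31 with no fold cutoff, 6 by Bonferroni and 2 with as many other Exc_ cells as Exc_7 cells, and 6 to 26 without 1 library, with 11 without P21 replicate 2 and 6 without either saline 15 d library. The cocaine interaction count of 0 was 1 with equal cells and 0 to 2 without 1 library.

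The share difference with cocaine ran from 0.423 to 1.23 points without 1 library, and the share difference with age from -0.817 to 0.0684, where it turned sign without saline maintenance replicate 1. Ratios to the other Exc_ cells were 6.64 for *Figf*, 5.89 for *Hpcal1*, 4.33 for *Tubb2b* and 4.05 for *Cpne7* with clusters of equal weight, and 0.0605 for *Igfbp4* in saline libraries. The causes of these changes were not tested. The alternatives for maintenance, for 48 h and for all time points together were not run beyond the fits in the text, since those groups lack 2 libraries a side. No paired analysis was possible because replicate numbers were given in accession order and pair no libraries. Low cell numbers limit levels under about 20 CPM.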
